A study of Mus musculus with 8 samples.

Results

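Oxidative phosphorylation is carried out in the inner mitochondrial membrane by complexes I to V, and the genes described here encode the nuclear-encoded parts of these complexes. They were chosen by symbol: every gene whose probe set carried exactly 1 gene symbol starting with Nduf (families a, b, c, s and v), Uqcr, Cox4 to Cox8 or Atp5, together with Sdha to Sdhd and Cyc1. The choice gave 89 genes of the 18820 with such a probe set. Complex I held 43, complex II 4, complex III 8, complex IV 17 and complex V 17. Of the 89, 8 share the stem of a symbol without being structural subunits, namely the 7 Ndufaf assembly factors and Cox7a2l, a factor of respiratory supercomplexes. Another 8 are paralogs whose expression is largely restricted to particular tissues. Uqcrc2, Cox7c and Ndufa13 had only probe sets with several symbols and were not used here, and the 13 subunits encoded by mitochondrial DNA were not analysed here.

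The arrays held RNA from CD3+ T cells isolated from grafts of tissue derived from human embryonic stem cells, at day 30. All hosts were wild-type CD1 mice, an outbred strain. The 4 rejecting samples came from untreated hosts, and the 4 tolerant samples from hosts given antibodies against CD4, CD8 and CD40L. Ages, pooling and whether each sample was a separate mouse are not given in the labels, so a p-value reflects just the scatter among these samples, part of which may be technical. In RNA from a sorted population, fewer cells of a type and less RNA per cell cannot be told apart.

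Complex I takes electrons from NADH, complex II takes them from succinate within the citric acid cycle, complex III passes them from ubiquinol to cytochrome c, and complex IV passes them to oxygen. Complexes I, III and IV pump protons, and complex V, the ATP synthase, lets protons back to make ATP. In T cells, respiration is known to support memory and regulatory subsets, while activated effector cells also rely on glycolysis.

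The arrays fell into 2 sets by number. An array's background line was the value that 99% of 1182 olfactory and vomeronasal receptor probe sets did not exceed, between 0.99 and 1.35 on the log2 scale. On the arrays numbered 1 and 2, between 2.54% and 5.73% of all probe sets with 1 symbol lay above it, and on those numbered 3 and 4 between 10.7% and 17.1%. The respiratory genes followed this division: on arrays 1 and 2, 15 and 17 of the 89 lay above the line in rejecting samples and 8 and 5 in tolerant samples. On arrays 3 and 4, the counts were 30 and 30 for rejecting samples, but 45 and 42 for tolerant ones. Only Ndufb11, Atp5c1 and Atp5o were above it on all 8 arrays, and 38 of the 89 on none. Of all 21218 probe sets with 1 symbol, 219 were above it on all 8 arrays and 15614 on none. The counts of the 89 use the probe set with the highest mean of each gene. The other probe set of Atp5o was under the line on all 8 arrays, and that of Ndufb11 on arrays 1 and 2. The 2 sets of arrays are therefore described apart. The T cell identity of the samples was only partly visible on these arrays: of 10 measured T cell markers, Cd3e, Cd5 and Cd8b1 were above the line on all of arrays 3 and 4, and Cd3d, Cd247 and Cd28 on none of the 8.

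**Figure D1:**
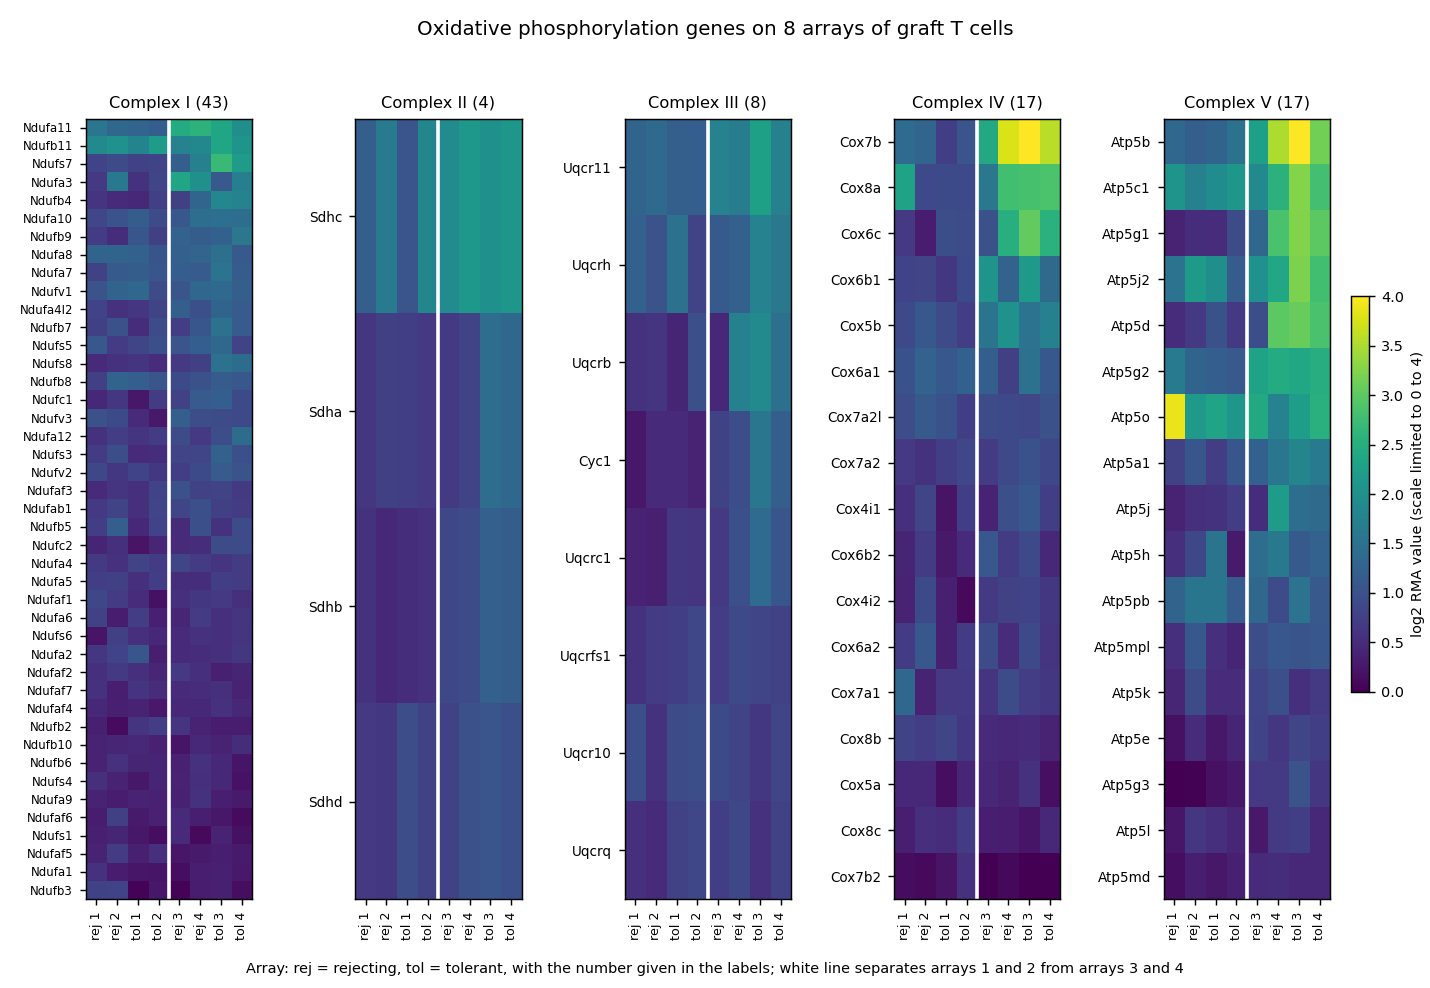
Log2 RMA value of each of the 89 genes (rows, grouped by complex) on each of the 8 arrays (columns). Columns are marked rej for rejecting and tol for tolerant, with the array number, and the colour scale runs from 0 to 4. Brighter cells are concentrated on the arrays numbered 3 and 4, and tolerant arrays 3 and 4 have 45 and 42 genes above their background line.

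Over all 8 arrays no respiratory gene passed the test of tolerant against rejecting samples after adjustment. limma called 0 of 89, and 0% of the 21218 probe sets tested, at an adjusted p under 0.05. Before adjustment, 1 of 89 had a p under 0.05 (2.89% of all probe sets), Ndufv3, a small complex I subunit of the NADH-oxidising arm. Its values were 1.00, 0.90, 1.21 and 0.95 on rejecting arrays 1 to 4 and 0.49, 0.28, 0.93 and 0.88 on tolerant arrays 1 to 4. The tolerant arrays were the lower ones and overlapped the rejecting arrays in range, and the difference was -0.37 (SE 0.16, limma adjusted p = 1.0, unadjusted 0.0421). This fit has no term for the sets of arrays. With the set as a block, 9 of 89 and 1187 of all 21218 probe sets had an unadjusted limma p under 0.05. Without it there were 1 and 613, and limma called 0 after adjustment either way. For no gene of the 89 did all tolerant arrays lie on 1 side of all rejecting arrays, which 1.09% of all probe sets did upward and 1.13% downward. The median difference, tolerant minus rejecting, was 0.03 for the 89 genes against 0.00 for all probe sets, and 56 of 89 (62.9%) had a higher tolerant mean against 50.1%.

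On the arrays numbered 3 and 4, where more of these genes were measurable, the differences leaned upward in tolerant samples, but again none passed. limma called 0 of 89 at an adjusted p under 0.05, against 0.0518% of all probe sets, and the smallest adjusted p of the 89 was 0.184, for Ndufs8. At an unadjusted p under 0.05 there were 13 of 89 (14.6%), 11 with the higher mean in tolerant samples and 2 with the lower, against 7.20% of all probe sets. The tolerant mean was the higher in 63 of 89 (70.8%), against 48.2% of all probe sets, and the median difference was 0.08 against -0.01. Both tolerant arrays lay above both rejecting arrays for 24 genes (27.0%, against 19.3%) and below them for 11 (12.4%, against 20.0%). A difference above 0.5 was found for 15 of the 89 (16.9%), against 2.59% of all probe sets, and 1 gene, Ndufa3, was below -0.5, as were 0.914% of all. The cut of 0.5 was chosen after the values were seen.

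That lean depended on single arrays, and most on rejecting array 3. Rejecting array 4 was the higher of both rejecting arrays for 61 of the 89 (68.5%, against 48.5% of all probe sets). The mean of tolerant arrays 3 and 4 exceeded rejecting array 3 for 61 genes, by a median of 0.12, and exceeded rejecting array 4 for 47 (52.8%, against 50.3% of all probe sets), by a median of 0.01. Without rejecting array 3, 47 of 89 were higher in tolerant samples and the median difference was 0.0061. Without tolerant array 3 the values were 50 and 0.03, and without tolerant array 4 they were 62 and 0.16. Without rejecting array 4 the fit called 1 of the 89, Atp5d (limma adjusted p = 0.0466), and 48 of all 21218 probe sets, against 11 with it. That fit has rejecting array 3 as the lone array of its group, which is assumed to vary like the tolerant arrays.

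**Figure D2:**
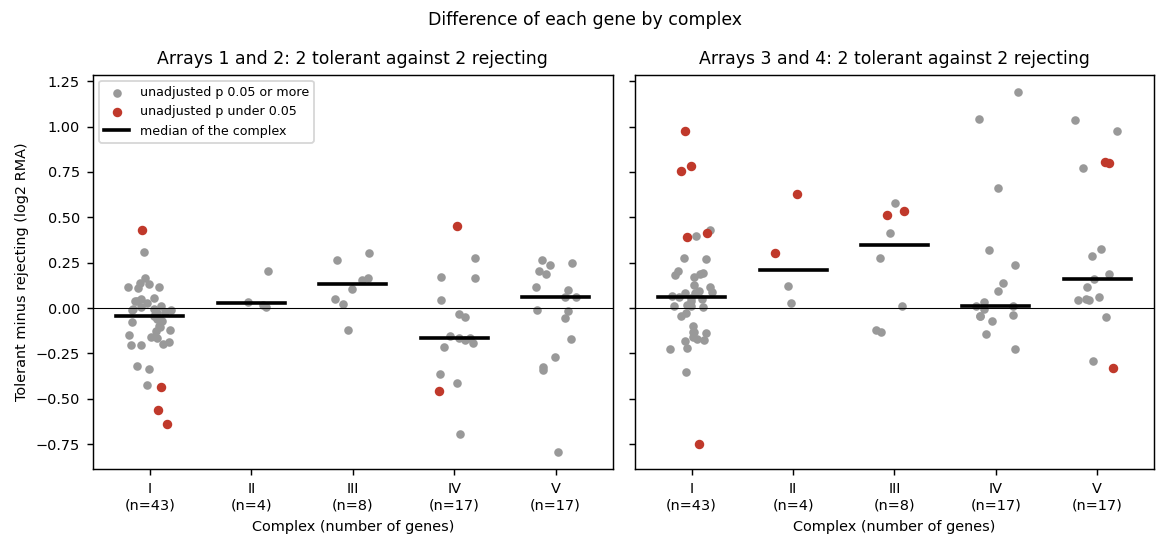
Difference of each gene, tolerant minus rejecting on the log2 scale, by complex, on the arrays numbered 1 and 2 and on those numbered 3 and 4; each dot is 1 gene, red dots have an unadjusted limma p under 0.05, and bars are medians. On arrays 3 and 4 the medians are 0.06, 0.21, 0.35, 0.01 and 0.16 for complexes I to V, and on arrays 1 and 2 they are -0.04, 0.03, 0.13, -0.17 and 0.06.

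Promoter sequence is one feature of these genes that their choice by symbol did not use. Many respiratory genes are known targets of the activator NRF1, of the ETS-family factor GABP and of YY1. RefSeq promoters, 250 bases before to 50 after the start on GRCm38.p6, were matched for 73 of the 89 genes, with 78 start sites. A core of the NRF1 site, GCGCA and GCGC with any 1 base between them, on either strand, was found in 20 of these 78 promoters (25.6%) and in 4.60% of all 32851 promoters. The ETS core CCGGAAG was found in 18 (23.1%, against 8.86%), and AAGATGGCG, a YY1 core that contains a start codon, in 7 (8.97%, against 1.40%). At least 1 of the 3 was present in 39 promoters (50.0%, against 13.6%). A match describes letters in this window and no binding. By gene, the NRF1 core was found in 9 of 38 matched genes of complex I, 2 of 3 of complex II, 1 of 5 of complex III, 1 of 12 of complex IV and 6 of 15 of complex V. Below are the 150 bases before the start of 4 genes that carry it and whose values are described in the paragraphs after, written 5′ to 3′ on the gene's strand with the NRF1 core in capitals. Sdha, Ndufb4 and Atp5c1 had the higher mean in tolerant samples on arrays 3 and 4 and Ndufa11 the lower. They were chosen after their values were seen. Sdha (chr13:74350241-74350390, minus strand) has 3 matches, Ndufb4 (chr16:37654369-37654518, minus strand) has 2, and Atp5c1 (chr2:10080433-10080582, minus strand, 1 of 2 listed starts) and Ndufa11 (chr17:56717612-56717761, plus strand) have 1 each.
Sdha: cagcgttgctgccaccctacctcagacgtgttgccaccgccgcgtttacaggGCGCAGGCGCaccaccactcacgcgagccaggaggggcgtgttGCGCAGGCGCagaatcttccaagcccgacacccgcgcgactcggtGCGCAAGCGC
Ndufb4: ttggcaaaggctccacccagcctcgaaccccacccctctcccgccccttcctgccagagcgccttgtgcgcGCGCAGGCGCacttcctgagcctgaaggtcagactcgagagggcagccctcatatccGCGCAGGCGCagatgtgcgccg
Atp5c1: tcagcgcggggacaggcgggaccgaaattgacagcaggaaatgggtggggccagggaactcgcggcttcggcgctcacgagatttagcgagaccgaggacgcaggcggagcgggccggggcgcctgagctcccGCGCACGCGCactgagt
Ndufa11: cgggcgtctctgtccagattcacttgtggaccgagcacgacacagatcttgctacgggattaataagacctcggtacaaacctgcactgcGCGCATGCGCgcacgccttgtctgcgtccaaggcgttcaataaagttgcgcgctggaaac

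The core subunits of complex I include those that carry the flavin and the iron-sulphur clusters through which electrons pass. Their median difference was higher than that of the other genes of the complex. All 6 core genes measured (Ndufv1, Ndufv2, Ndufs1, Ndufs3, Ndufs7 and Ndufs8) had a higher mean in tolerant samples on arrays 3 and 4, with a median difference of 0.27, and in 4 of them both tolerant arrays were above both rejecting arrays. Leaving out 1 array gave medians between 0.18 and 0.37, with 5 or 6 of the 6 higher. Among all 43 genes of complex I 29 were higher, with a median of 0.06, and without rejecting array 3, or without tolerant array 3, 22 of 43 were higher, with a median of 0.00. Ndufs8, which encodes an iron-sulphur subunit of the peripheral arm, read 0.67 and 0.75 on rejecting arrays 3 and 4, against 1.51 and 1.42 on the tolerant arrays of those numbers. The tolerant arrays were apart from the rejecting arrays, which lay under their background lines. The measured difference was 0.75 (SE 0.11, limma adjusted p = 0.184), and against the background lines the tolerant level was at least 1.31-fold higher. That bound sets the tolerant mean against the mean of the rejecting arrays' lines. It is printed for some of the genes whose rejecting arrays both lay under the line and whose tolerant arrays both lay above it. Other differences from rejecting values under the line are measured values without a bound. In a contrast within a fit of all 8 arrays the adjusted p of Ndufs8 was 0.0478, the only one of the 89 under the threshold in that fit, which called 81 of all 21218 probe sets against 11 in the fit of arrays 3 and 4.

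Ndufs7, which holds the last iron-sulphur cluster before ubiquinone, read 1.21 and 1.74 on rejecting arrays 3 and 4, against 2.71 and 2.19 on the tolerant arrays of those numbers. The groups did not overlap, but each differed within itself by about as much as rejecting array 4 differed from tolerant array 4. The difference was 0.98 (SE 0.25, limma adjusted p = 0.457). The other core genes were near background: Ndufs3 and Ndufv2 had differences of 0.27 and 0.28, Ndufv1 one of 0.08 and Ndufs1, under the line on all 8 arrays, one of 0.01.

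The supernumerary subunits of complex I surround the core and stabilise it. The genes assigned to them by symbol alone, Ndufa4 among them, were divided. Of 29, 19 were higher and 10 lower in tolerant samples on arrays 3 and 4, with a median of 0.07. The direction turned without rejecting array 3, to -0.03 with 14 of 29 higher, and the median was 0.03 without tolerant array 3 and 0.16 without rejecting array 4. Ndufb4, of the membrane arm, read 0.76 and 1.31 on rejecting arrays 3 and 4, against 1.85 and 1.79 on the tolerant arrays of those numbers. The tolerant arrays were the higher ones and rejecting array 3 was the lowest. The difference was 0.78 (SE 0.19, limma adjusted p = 0.437), and the gene's second probe set gave 0.56. Ndufc2, also of the membrane arm, read 0.49 and 0.53 against 0.94 and 0.91 in tolerant samples. All of these values lie under the background lines, so the difference of 0.41 (SE 0.10, limma adjusted p = 0.436) describes signal that cannot be told from that of silent genes. Ndufb11, a membrane-arm subunit, had 1 probe set above the line on all 8 arrays. That probe set read 1.77 and 1.87 on rejecting arrays 3 and 4, against 2.35 and 2.07 on the tolerant arrays of those numbers, with no overlap. Its difference was 0.39 (SE 0.13, limma adjusted p = 0.620). On arrays 1 and 2 its values were 1.90 and 2.02 in rejecting against 1.81 and 2.21 in tolerant samples, which overlap. The other probe set of Ndufb11, under the line on arrays 1 and 2, gave 0.55 on arrays 3 and 4.

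The largest difference downward of the 89 was that of Ndufa3, another membrane-arm subunit. It read 2.34 and 2.00 on rejecting arrays 3 and 4, against 1.12 and 1.72 on the tolerant arrays of those numbers. Both tolerant arrays were lower, by unequal amounts, and the difference was -0.75 (SE 0.23, limma adjusted p = 0.570). Ndufa11, whose promoter is shown above, read 2.46 and 2.59 against 2.34 and 2.00 in tolerant samples. The tolerant arrays were again the lower ones, with a difference of -0.35 (SE 0.15, limma adjusted p = 0.699), but its other probe set gave 0.08, so the direction depended on the probe set. The 7 Ndufaf assembly factors, which help to build complex I and are not part of it, were under the line on all 8 arrays, with a median difference of -0.03 and 3 higher.

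Complex II has 4 subunits, and all 4 had a higher tolerant mean on arrays 3 and 4, with a median difference of 0.21. Without rejecting array 3, or without tolerant array 4, it was 3 of 4. Sdha, the flavoprotein that oxidises succinate, read 0.69 and 0.82 on rejecting arrays 3 and 4, against 1.43 and 1.34 on the tolerant arrays of those numbers. The rejecting arrays were under their lines and the tolerant arrays were above theirs. The measured difference was 0.63 (SE 0.11, limma adjusted p = 0.240), at least 1.24-fold. Sdhb, the iron-sulphur subunit, read 0.87 and 0.93 against 1.22 and 1.18 in tolerant samples, again without overlap. Its difference was 0.30 (SE 0.10, limma adjusted p = 0.615), at least 1.09-fold. Sdhc and Sdhd anchor these catalytic subunits in the membrane. Sdhc, the one most often above background, read 1.94 and 2.13 in rejecting against 2.01 and 2.12 in tolerant samples, so the groups overlapped almost fully (difference 0.03), and Sdhd had a difference of 0.12.

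Complex III had a median difference of 0.35 on arrays 3 and 4 over 8 genes, of which 6 were higher. This was the highest of the complexes with all 4 arrays, but complexes II and V were higher without rejecting array 3, and complex II without tolerant array 3. The median was 0.10, with 4 of 8 higher, without rejecting array 3, 0.13 without tolerant array 3 and 0.56 without tolerant array 4. Cyc1, the haem-bearing cytochrome that hands electrons to cytochrome c, read 0.77 and 0.94 on rejecting arrays 3 and 4, against 1.56 and 1.21 on the tolerant arrays of those numbers. The tolerant arrays were the higher ones and differed between themselves by more than the rejecting arrays did. The difference was 0.53 (SE 0.16, limma adjusted p = 0.547), at least 1.24-fold. Uqcrh, the acidic hinge protein of the complex, read 1.13 and 1.22 against 1.77 and 1.60 in tolerant samples, with no overlap. Its difference was 0.51 (SE 0.12, limma adjusted p = 0.384), and its other probe set gave 0.23.

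The other genes of complex III were less even. Uqcrb, a small subunit next to the ubiquinone site, read 0.47 and 1.76 on rejecting arrays 3 and 4, against 1.91 and 1.47 on the tolerant arrays of those numbers. Rejecting array 4 lay between the tolerant arrays, so the difference of 0.58 came from rejecting array 3 alone. Uqcrc1, a core protein, and Uqcr11, a small subunit, had differences of 0.42 and 0.28, and the other probe set of Uqcr11 gave -0.21. For Uqcrc1, whose rejecting arrays both lay under the line, the tolerant level was at least 1.12-fold higher. Uqcrfs1, the Rieske iron-sulphur protein, was under the line on all 8 arrays with a difference of 0.01, and Uqcr10 and Uqcrq had differences of -0.12 and -0.13.

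Complex IV was measured by 9 ubiquitous subunits, 7 tissue-restricted paralogs and Cox7a2l. On arrays 3 and 4 the ubiquitous subunits had a median difference of 0.24, with 7 of 9 higher. It was 0.07 without rejecting array 3, 0.06 without tolerant array 3 and 0.47 without tolerant array 4. Over all 17 genes of the complex the median was 0.01, with 10 higher. Without tolerant array 3 that median was -0.02, with 8 higher, and without tolerant array 4 it was 0.16, with 11 higher. None of the 17 had an unadjusted p under 0.05 on arrays 3 and 4. Cox7b, a small structural subunit, read 2.41 and 3.78 on rejecting arrays 3 and 4, against 4.97 and 3.59 on the tolerant arrays of those numbers. Its difference, 1.19, was the largest of the 89 genes, yet rejecting array 4 was above tolerant array 4, and the SE was 0.60 (limma adjusted p = 0.717). Cox6c, another small subunit, read 0.99 and 2.52 in rejecting against 3.04 and 2.55 in tolerant samples, and Cox8a 1.59 and 2.78 against 2.83 and 2.86. In both, rejecting array 4 was just under the lower tolerant array and rejecting array 3 was far lower. The differences were 1.04 (SE 0.50) for Cox6c and 0.66 (SE 0.37) for Cox8a, with limma adjusted p of 0.709 and 0.741. Cox4i1 and Cox5a, subunits next to the catalytic core that were named after their values were seen, had differences of 0.24 and -0.04 near or under the line.

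The tissue-restricted paralogs replace ubiquitous subunits in muscle, lung, testis or other tissues. Over the 8 of them, 7 of complex IV and Ndufa4l2, 3 were higher in tolerant samples on arrays 3 and 4 and the median difference was -0.02. The differences were -0.01 for Cox4i2, 0.03 for Cox6a2, -0.23 for Cox6b2, -0.07 for Cox7a1, -0.05 for Cox7b2, -0.04 for Cox8b and 0.01 for Cox8c. Of these, Cox6b2 exceeded the line on 1 of arrays 3 and 4 of either group, and the others on none. Ndufa4l2, a relative of Ndufa4 known to be induced by low oxygen, was above the line on 3 of those 4 arrays and read 1.21 and 0.97 in rejecting against 1.29 and 1.14 in tolerant samples. Its groups overlapped and differed by 0.13.

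Complex V includes the F1 sector, the part that projects into the matrix and makes ATP. Its 5 genes (Atp5a1, Atp5b, Atp5c1, Atp5d and Atp5e) all had a higher mean in tolerant samples on arrays 3 and 4, with a median difference of 0.77, against 0.16 for the 3 c subunit genes and 0.05 for the 9 genes of the stalk and membrane part. The F1 value depended on single arrays: it was 0.16, level with the c subunit genes at 0.16, without rejecting array 3, and 0.26 without tolerant array 3. Without rejecting array 3 the stalk and membrane genes had a median of -0.08, with 3 of 9 higher, and it was negative too without rejecting array 4 (-0.02) or tolerant array 3 (-0.01). Over all 17 genes of the complex the median was 0.16, with 14 higher. Without rejecting array 3, 9 of the 17 were higher, and the median was 0.14. It was 0.06 without tolerant array 3 and 0.26 without tolerant array 4. Atp5c1, the gamma subunit that forms the rotating shaft, read 1.89 and 2.57 on rejecting arrays 3 and 4, against 3.25 and 2.81 on the tolerant arrays of those numbers. The groups did not overlap and rejecting array 4 was close to tolerant array 4. The difference was 0.80 (SE 0.27, limma adjusted p = 0.599). Atp5b, the catalytic beta subunit, read 2.25 and 3.51 against 4.17 and 3.14 in tolerant samples, so the groups overlapped (0.77, SE 0.50, limma adjusted p = 0.772).

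Atp5d, the delta subunit of the shaft, was named after its values were seen because of the gap between the rejecting arrays. It read 0.97 and 3.00 on rejecting arrays 3 and 4, against 3.07 and 2.85 on the tolerant arrays of those numbers. Rejecting array 4 lay between the tolerant arrays, and the difference of 0.98 had an SE of 0.63 (limma adjusted p = 0.772). Without rejecting array 4 the difference was 1.99, with no replicate left in the rejecting group.

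The rest of complex V forms the membrane ring and the stalk that holds the F1 sector still. Atp5g1, 1 of 3 genes for the c subunit of the ring, read 1.32 and 2.85 on rejecting arrays 3 and 4, against 3.25 and 2.99 on the tolerant arrays of those numbers. Both tolerant arrays were higher, but rejecting array 4 was close to them, and the difference was 1.04 (SE 0.48, limma adjusted p = 0.707). The other c subunit genes, Atp5g2 and Atp5g3, had differences of 0.05 and 0.16. Atp5j2, the f subunit of the membrane part, read 2.02 and 2.38 in rejecting against 3.21 and 2.79 in tolerant samples without overlap, a difference of 0.81 (SE 0.19, limma adjusted p = 0.428). Atp5h, the d subunit of the peripheral stalk, went the other way, with 1.43 and 1.62 against 1.13 and 1.27 in tolerant samples. Its groups did not overlap and the difference was -0.33 (SE 0.12, limma adjusted p = 0.658), but its other 3 probe sets gave 0.33, 0.11 and 0.13. Atp5k, the e subunit, known for its part in dimers of the synthase, had a difference of -0.29 under the line.

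**Figure D3:**
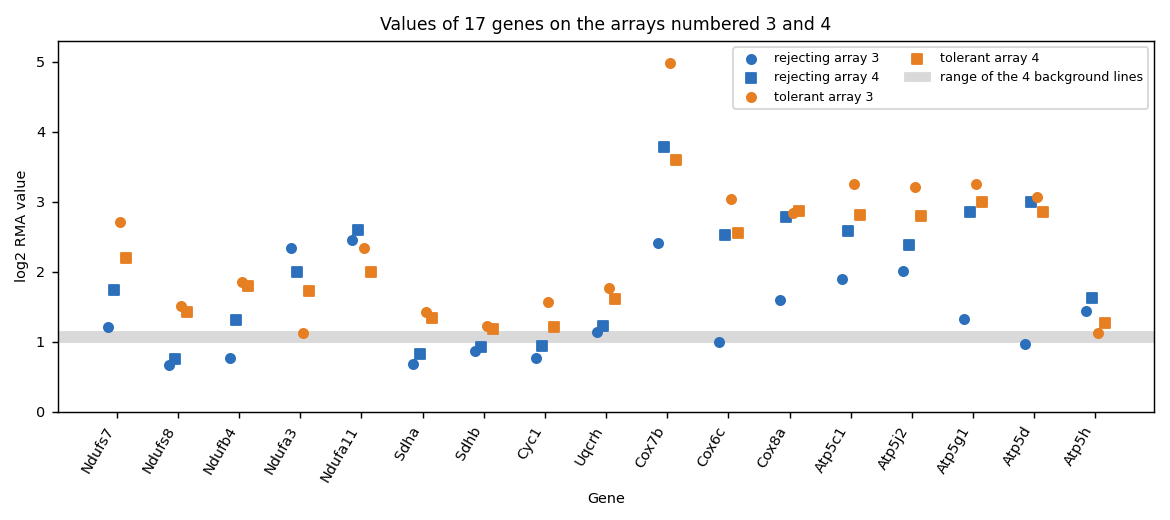
Log2 RMA values of 17 genes, chosen after their values were seen, on rejecting arrays 3 and 4 and tolerant arrays 3 and 4; the grey band spans the background lines of these arrays. For Ndufs8, Sdha, Cyc1 and Uqcrh both rejecting arrays are below both tolerant arrays and near each other, while for Atp5d, Atp5g1, Cox6c and Cox8a rejecting array 4 is near the tolerant arrays.

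The 15 genes with a difference above 0.5 on arrays 3 and 4 were sorted by the place of rejecting array 4, a rule with only 2 outcomes. In 6 of them (Ndufs7, Ndufs8, Sdha, Cyc1, Uqcrh and Atp5j2) rejecting array 4 was nearer to rejecting array 3 than to the tolerant mean. In the other 9 (Ndufb4, Uqcrb, Cox7b, Cox6c, Cox8a, Atp5b, Atp5c1, Atp5d and Atp5g1) rejecting array 4 was nearer to the tolerant mean. The values were graded: in Ndufb4 rejecting array 4 was 0.51 below the tolerant mean and 0.54 above rejecting array 3. In 11 of the 15 both tolerant arrays were above both rejecting arrays. The 15 were chosen by their difference on these same arrays, so this count supports no direction. The share among all probe sets above the cut was not counted. Leaving out each array in turn, the difference of Ndufs8 ranged from 0.71 to 0.80 and that of Sdha from 0.56 to 0.70, while that of Cox6c ranged from 0.27 to 1.81 and that of Cox8a from 0.07 to 1.25.

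Where a gene had several probe sets, they gave the same direction more often than not. Of 23 such genes, the probe sets had the same sign on arrays 3 and 4 in 16 and different signs in 7 (Atp5h, Atp5l, Atp5md, Cox7a2l, Ndufa11, Ndufb5 and Uqcr11). The probe sets of Atp5g1 gave 0.94 and 1.04, those of Cox6c 1.04 and 1.10, and those of Cox7b 1.05 and 1.19. Which transcripts or gene copies each probe set matches was not examined. Those of Atp5o, the oligomycin-sensitivity subunit of the stalk, differed in mean level by 1.63 on arrays 3 and 4, and its upper one read 3.88 on rejecting array 1 against 1.77 to 2.54 on the other arrays.

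On the arrays numbered 1 and 2 the respiratory genes showed no lean upward. limma called 0 of 89 at an adjusted p under 0.05, as it did of all probe sets (0%), and 6 of 89 (6.74%) at an unadjusted p under 0.05, against 5.15% of all. The 6 were Cox6c and Ndufb2, with the higher mean in tolerant samples, and Cox7b, Ndufaf1, Ndufb3 and Ndufv3, with the lower. Of the 89, 40 (44.9%, against 49.4% of all probe sets) had the higher tolerant mean, with a median difference of -0.01. Both tolerant arrays were above both rejecting arrays for 12 (13.5%, against 17.2%) and below them for 14 (15.7%, against 17.1%). On these arrays 68 of the 89, and 19262 of all 21218 probe sets, were under the line on all 4. Most of these differences were thus between values at background. Cox7b was not among the 68: its rejecting arrays 1 and 2 were above their lines and the tolerant arrays under theirs. It read 1.39 and 1.31 on rejecting arrays 1 and 2, against 0.74 and 1.05 on the tolerant arrays of those numbers. This was the opposite order to its means on arrays 3 and 4.

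Whether the difference between groups itself differed between the sets was tested with an interaction term. limma called 0 of 89 at an adjusted p under 0.05, against 0.0566% of all probe sets, and 11 of 89 at an unadjusted p under 0.05, against 7.13%. The smallest adjusted p was 0.321, for Ndufs8. In level, 66 of the 89 (74.2%, against 53.2% of all probe sets) had the higher mean on arrays 3 and 4. For 23 (25.8%, against 10.1% of all probe sets) each of those 4 arrays was above each of arrays 1 and 2, while 3 of the 89 had the reverse (against 5.99%). These 23 included 7 of the 17 genes of complex V, 4 of complex IV, 3 of complex III, 2 of complex II and 7 of complex I.

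Genes that work beside the respiratory chain were examined by list on arrays 3 and 4, and limma called none of their members at an adjusted p under 0.05. Of 20 measured genes of the citric acid cycle and pyruvate dehydrogenase, 17 had the higher tolerant mean, with a median difference of 0.23 (0.14 to 0.35 with 1 array left out). In 5 of these the unadjusted p was under 0.05, all with the higher mean in tolerant samples. Idh3g, a subunit of the NAD-dependent isocitrate dehydrogenase, read 1.29 and 1.07 on rejecting arrays 3 and 4, against 2.28 and 2.03 on the tolerant arrays of those numbers. Its groups did not overlap, and the difference was 0.98 (SE 0.14, limma adjusted p = 0.186). Idh3b, of the same enzyme, and Cs, citrate synthase, had differences of 0.54 and 0.84. In both, the rejecting arrays lay under their lines, so the size of the difference is uncertain.

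Of 11 carriers and exchange proteins 8 were higher, with a median of 0.18 and 2 unadjusted p under 0.05, both upward. Without rejecting array 3 the median turned to -0.06, with 4 of 11 higher, it was 0.03 without tolerant array 3, and without rejecting array 4 or tolerant array 4 it was 0.47 or 0.37. Slc25a3, the carrier that brings phosphate to the ATP synthase, read 1.46 and 2.26 in rejecting against 3.25 and 2.78 in tolerant samples, a difference of 1.16 (SE 0.30, limma adjusted p = 0.465) without overlap. Vdac1, the outer-membrane channel, and Atpif1, the inhibitor of the ATP synthase, had differences of 0.48 and 0.77. Both rejecting arrays of Vdac1 lay under their lines. Among 12 regulators of mitochondrial biogenesis 8 were higher, with a median of 0.03 (-0.02 to 0.09 with 1 array left out, negative without tolerant array 4) and 2 unadjusted p under 0.05, both upward. Ppargc1a, a coactivator of respiratory genes, read 0.67 and 0.69 against 1.18 and 1.11 in tolerant samples, apart but near the background lines (difference 0.46, limma adjusted p = 0.383). Polrmt, the mitochondrial RNA polymerase, and Yy1 had differences of 0.48 and 0.22.

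The remaining mitochondrial lists had medians below 0 with all 4 arrays. Without rejecting array 3 or without tolerant array 4, those of the assembly factors (0.03 and 0.01) and of the ribosomal proteins (both 0.00) were above it. Of 37 assembly factors outside the symbol rule 16 were higher, with a median of -0.02. The 2 with an unadjusted p under 0.05, Surf1 and Cox14, both of complex IV assembly, had differences of 0.38 and 0.45. Surf1 was at or under the line on all 8 arrays, and both rejecting arrays of Cox14 lay under their lines. Of 12 genes of coenzyme Q synthesis 2 were higher, with a median of -0.08 and no unadjusted p under 0.05. Of 74 mitochondrial ribosomal proteins, which translate the mitochondrially encoded subunits, 29 were higher and 45 lower, with a median of -0.05. At an unadjusted p under 0.05 there were 2 upward and 3 downward, among them Mrps11 with 0.35, Mrps26 with -0.60 and Mrpl21 with -0.43. Mrps11 was at or under the line on all 8 arrays. Both tolerant arrays of Mrps26 lay under their lines, and Mrpl21 was over the line on 1 of arrays 3 and 4 of either group.

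Markers of other cell types moved with the tolerant samples on the same arrays. Of 13 markers of kidney tubule, an epithelium rich in mitochondria, 12 had the higher tolerant mean, with a median difference of 0.89, and limma called 2, Slc12a3 (2.93, adjusted p = 0.0359) and Calb1 (1.64, adjusted p = 0.0440). Their summed log2 values were 10.8 and 12.2 on rejecting arrays 3 and 4, against 31.8 and 25.6 on the tolerant arrays of those numbers, while Lrp2, Cubn and Kap, genes of the proximal tubule, were at or under the line on all 8 arrays. Slc34a1, another proximal gene of the list, read 0.97 and 0.97 against 1.93 and 1.33 in tolerant samples, over the line on both tolerant arrays (difference 0.67), and Aqp1 was over it on tolerant array 3. The list's median was 0.54 to 1.08 with 1 array left out, the lowest without tolerant array 3. On arrays 1 and 2, 5 of the 13 were higher. All 10 fibroblast markers were higher, with a median of 0.50 and sums of 14.5 and 12.1 against 20.2 and 20.1, and Lum, Pdgfra, Pdgfrb and Postn were at or under the line on all 8 arrays. Of 12 macrophage and monocyte markers 10 were higher, with a median of 0.38 (0.14 without tolerant array 4) and sums of 11.1 and 5.92 against 15.1 and 17.5, and Cd14, Adgre1, Fcgr3 and Itgam were at or under the line throughout.

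Other marker lists showed smaller shifts. Of 11 heart and skeletal muscle markers 6 were higher, with a median of 0.01, and the 4 brown fat markers were at or under the line on all 8 arrays. Endothelial, B cell and adrenal cortex lists had 4 of 8, 2 of 4 and 3 of 6 members higher, and both measured erythroid genes were higher. Of the 10 T cell markers 8 were higher, with a median of 0.06 and sums of 9.86 and 10.9 against 11.2 and 14.6. Cd3e, a chain of the CD3 complex by which the cells were isolated, read 1.51 and 2.36 on rejecting arrays 3 and 4, against 2.75 and 3.82 on the tolerant arrays of those numbers. Both tolerant arrays were the higher ones. The part of any of these cell types in the differences of the respiratory genes was not tested.

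**Figure D4:**
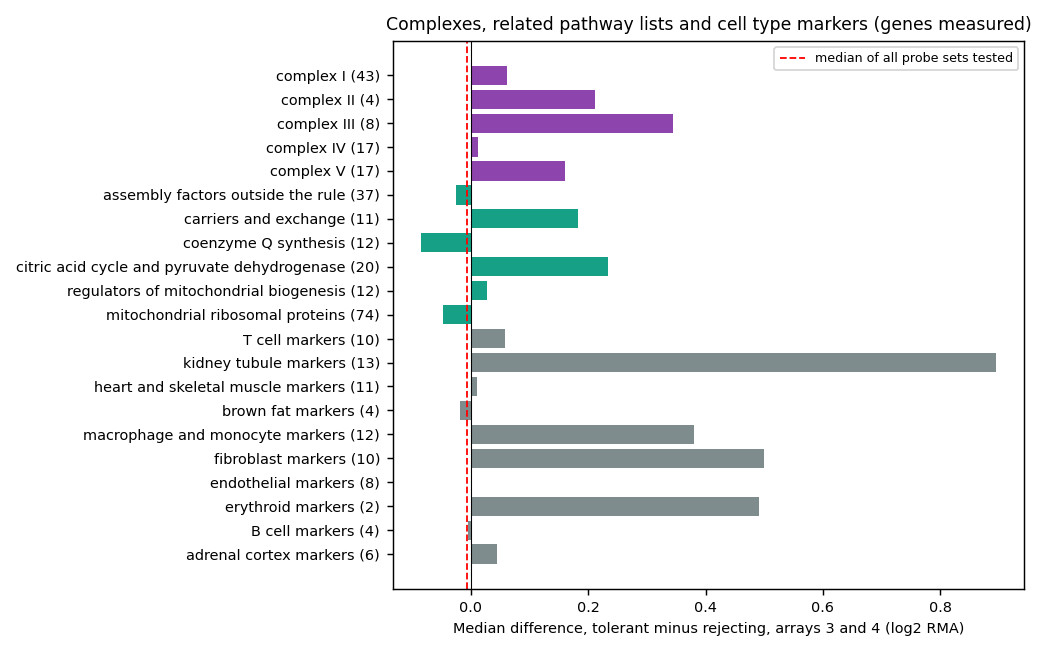
Median difference on arrays 3 and 4, tolerant minus rejecting on the log2 scale, of the genes of each complex, of the other mitochondrial lists and of the cell type marker lists; the dashed line is the median of all probe sets tested. The kidney tubule list has the largest median, 0.89, and complex III, 0.35, the largest among the complexes with all 4 arrays in.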

How the data were processed

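The authors' deposited table holds log2 expression values of 8 arrays, for which the submitters' processing notes name RMA in Affymetrix Expression Console. Log base and software versions: not given in the sources used here. Base 2 was taken. The probe set with the highest mean represented a gene. limma 3.58.1 in R 4.3.3 compared the groups, 2-sided, at a threshold of 0.05. Benjamini-Hochberg adjustment covered all 21218 probe sets (of 35556) with exactly 1 symbol in the platform annotation. The fit was tested on simulated data. The number of arrays limits the precision: the median SE of the 89 genes on arrays 3 and 4 was 0.13.

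Named genes were, in each complex, the 3 highest and the 3 with the smallest unadjusted p on arrays 3 and 4, the 5 largest differences downward, the tissue-restricted paralogs and, of each pathway list, the 3 with the smallest unadjusted p. Others were chosen after their values were seen. The genes, lists and background line were chosen with earlier results of these data known.

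Same-numbered arrays of the groups deviated together (r across probe sets 0.410 to 0.599), as did arrays 1 and 2, or 3 and 4, of opposite groups (0.411 to 0.581). The pairing thus follows the sets of arrays, from the data and not the labels. Alternatives were leaving out each array, blocks, normalization again, a filter on dim probe sets, other probe sets or members, moderation and array weights. Promoters are RefSeq's on GRCm38.p6. Plots were drawn with matplotlib 3.10.9.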

Additional observations from a re-analysis of the deposited data

Results flagged for a closer look

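Values far from the other 3 arrays of their group were sought in 66 groups of 4 arrays. Of these groups, 2 were marked. For 4 values from 1 normal population chance marks about 1 in 20. Each group here mixes the 2 sets of arrays, so that rate need not hold. Uqcrb read 1.761 on rejecting array 4, with the other rejecting arrays between 0.47 and 0.60, a gap of 0.9 of the group's range. Cox8c read 0.554 on rejecting array 2, with the others between 0.31 and 0.34, a gap of 0.879 of the range. That value is under the background line.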

How the results depend on the processing

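The median difference of the 89 genes on arrays 3 and 4 kept its sign in each alternative run, but those of some complexes and subgroups did not, as given above. It ran from 0.0061 (without rejecting array 3) to 0.156 (without tolerant array 4), and the count of genes higher in tolerant samples from 47 to 62, when 1 array was left out. With dim probe sets left out (those over the line on fewer than 2 arrays of the fit), 37 of 42 genes were higher on arrays 3 and 4, with a median of 0.295, as were 62.3% of all probe sets left. With that filter 33 of 42 were higher on all 8 arrays, against 56.1% of all, and on arrays 1 and 2 the median of the 14 genes left was -0.089, against -0.085 for all. The filter admits genes through the group where they are high, so these values support no direction. Leaving out 1 array gave 41 to 61 genes higher and a median of -0.0212 to 0.0788 on all 8 arrays, and a median of -0.0687 to 0.00797 on arrays 1 and 2. The cause of these shifts was not tested.

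Called genes stayed at 0 on all 8 arrays and on arrays 1 and 2 in each alternative run. On arrays 3 and 4 leaving out an array gave 0 to 1, with 1 without rejecting array 4 (Atp5d), and the contrast in a fit of all 8 arrays gave 1 (Ndufs8). The interaction gave 0 to 1, with 1 without rejecting array 4 (Atp5d, adjusted p = 0.0318 by limma), where 76 of all probe sets were called against 12, again with a lone rejecting array in its set. With the replicate number as a block, limma called 0 genes in each fit where the block could be used, and on all 8 arrays 8 of the 89 and 1123 of all 21218 probe sets had an unadjusted p under 0.05, against 1 and 613 without the block. Across the alternatives that move single values, the sign of 8 of 33 named genes turned in at least 1 on arrays 3 and 4, of 11 on all 8 arrays and of 19 on arrays 1 and 2. Signal over background limits the rest: 40 of the 89 genes were under the line on each of arrays 3 and 4, as were 16031 of all 21218 probe sets.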
